A study of Homo sapiens with 12 samples.

Results

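The nucleolar factors described here are 46 protein-coding genes whose products make and assemble ribosomes: RNA polymerase I and its factors, the core proteins of the small nucleolar ribonucleoproteins (snoRNPs), abundant nucleolar proteins, and assembly factors of the small and large subunits. They were chosen by name, as every row of the deposited count table whose Ensembl identifier carries one of the 46 symbols. All 46 symbols matched 1 row each, among 60664 genes in the table. Their RNA was measured by sequencing in TOM-1 and RS4;11, human B-cell acute lymphoblastic leukaemia lines that the labels give as wild type and as lymphoblasts from blood. TOM-1 carries the Philadelphia chromosome (BCR joined to ABL1) and RS4;11 a rearrangement of KMT2A, and each is an established line, so each kind of leukaemia is represented by 1 line. The 4 groups were TOM-1 in control culture, TOM-1 with ADI-PEG20, RS4;11 in control culture and RS4;11 with ADI-PEG20, with 3 libraries each. ADI-PEG20, a form of arginine deiminase joined to polyethylene glycol, turns arginine in the medium into citrulline, and was given at 1000 ng/ml for 24 h to cells in log-phase growth. All groups shared RPMI medium with 20% fetal bovine serum, and the labels do not say what the control cultures received. The series title concerns a lack of argininosuccinate synthase (ASS1), which cells need to remake arginine from citrulline, in leukaemia with the Philadelphia chromosome.

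A ribosome starts in the nucleolus, where RNA polymerase I copies the ribosomal DNA into 1 long precursor. The upstream binding factor UBTF holds this DNA open, and RRN3 joins the polymerase to its start site. Box C/D snoRNPs methylate the precursor and box H/ACA snoRNPs turn some of its uridines into pseudouridine. Assembly factors then fold, cut and carry the pieces that become the small and large subunits. Growing and dividing cells, leukaemia cells among them, spend a large share of their resources on this work, and the genes of these factors are known as targets of MYC, which binds the E-box.

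The promoters of the 46 genes are shown first because many hold the same short sequence near the start site. In RefSeq's promoter table (GRCh38.p14, 250 bases before to 50 after each start site), 40 of the 46 genes had an entry. The others are MPHOSPH10, RRS1, RRP12, BOP1, NOP58 and NOLC1. The E-box CACGTG, which reads the same on both strands, stood in 22 of the 40 promoters (55.0%), against 12.3% of the 11381 tested genes with an entry and 7.26% of all 35116 promoters of this length. In the 50 bases after the start it stood in 15 of the 40 (37.5%), against 1.47% of the tested genes. In the 250 bases before the start it stood in 8 of the 40 (20.0%), against 11.0%. A box that began between 20 bases before and 40 bases after the start was present in 19 of the 40 (47.5%), against 2.72% of the tested genes, a window chosen after the positions had been seen. The 9 boxes below, in capitals inside 30 bases read 5′ to 3′ on the gene's strand, belong to 6 of the genes whose values are given in every library and to 2 further snoRNP core genes, GAR1 and NOP10, shown to compare the core proteins with each other.
FBL, chr19:39846356-39846385, minus strand: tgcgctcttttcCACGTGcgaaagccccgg
GAR1, chr4:109815781-109815810, plus strand: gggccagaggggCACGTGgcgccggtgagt
NOP10 near box, chr15:34343130-34343159, minus strand: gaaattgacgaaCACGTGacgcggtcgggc
NOP10 far box, chr15:34343289-34343318, minus strand: gtagggacactcCACGTGttttagcctgca
RRP9, chr3:51941892-51941921, minus strand: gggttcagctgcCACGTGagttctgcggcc
WDR43, chr2:28894658-28894687, plus strand: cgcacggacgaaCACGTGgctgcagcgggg
NAT10, chr11:34105602-34105631, plus strand: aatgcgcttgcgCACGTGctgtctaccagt
RCL1, chr9:4792936-4792965, plus strand: cctgttccaaacCACGTGgacgcgtctggg
GNL2, chr1:37595917-37595946, minus strand: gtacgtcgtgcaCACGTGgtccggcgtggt

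Counted from the start site, these boxes began at base 7 in FBL, 32 in GAR1, 4 in WDR43, 5 in RCL1 and 4 in GNL2, all after the start. They began at -5 in RRP9, -15 in NAT10, and -11 and -170 in NOP10. The bases around the 6 letters differed from gene to gene. A further 3 motifs of housekeeping promoters, named for the factors ZBTB33, YY1 and NRF1 and none of them containing the E-box, were searched on both strands over the whole window. The ZBTB33 motif stood in 1 of the 40 promoters (NOP14), against 1.0% of tested genes. The YY1 motif stood in 1 (POLR1C), against 3.1%, and the NRF1 motif in 2 (DKC1 and DDX10), against 2.66%. A match describes the letters in this window and shows no binding.

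**Figure D1:**
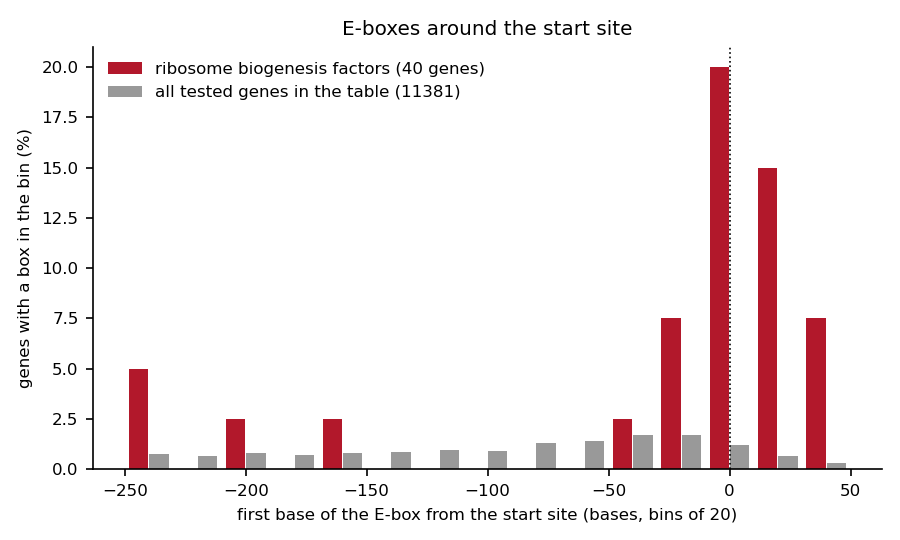
Percent of genes (vertical axis) with an E-box that begins in each bin of 20 bases along the promoter (horizontal axis, bases from the start site), for the 40 factors with a RefSeq promoter (red) and the 11381 tested genes with one (grey). The red bars are tallest around the start site. The grey bars are tallest just before it and fall away after it.

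Total counts ran from 18958144 to 35956959 per library. The labels name no separate cultures, so p-values measure the spread between these libraries, which may be technical. TOM-1 control 3 departed from all others: it had counts in 14963 genes, against 19857 to 21997 elsewhere, and its log2 CPM (read counts scaled to library size) correlated at 0.926 and 0.921 with the other TOM-1 controls, where every other pair of replicates reached at least 0.975. Counts of called genes, and the values that this library moved most, are therefore given with all 12 libraries and again without it. Of the 8 B-lineage markers examined, all had counts above the floor of 3 in each group, with summed CPM of 5356 to 6654 in TOM-1 control and 1947 to 2069 in RS4;11 control. T-lineage markers summed to at most 0.837 CPM in any library, with CD3D, CD3G and CD2 at 3 counts or fewer throughout. The 5 myeloid markers summed to between 10.2 and 26.7 CPM. HOXA9 and MEIS1, which mark leukaemia with a KMT2A rearrangement, had 0 CPM in every TOM-1 library and a sum of 140.2 to 159 CPM in RS4;11.

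Set per kilobase of the longest transcript, so that genes can be compared, NPM1 and NCL had the highest levels. In RS4;11 control NPM1 stood at 1027 ± 53.02 CPM per kb (SD, n = 3) and NCL at 574 ± 27.3. NPM1 (nucleophosmin) and NCL (nucleolin) are histone- and RNA-binding proteins that fill the nucleolus. A wide gap then led to FBL at 167 ± 6.88 CPM per kb and NOP56 at 164 ± 10.96, which did not differ beyond their spread. NHP2 at 143 ± 9.37 CPM per kb, GNL3 at 139.6 ± 7.17 and BOP1 at 136 ± 9.3 came next and overlapped each other within 1 SD. At the lower end were DDX10 at 9.55 ± 0.643, UTP20 at 7.89 ± 0.498 and NOP2 at 0.325 ± 0.06 CPM per kb. Of the 10 genes with the highest level, 9 were the same when exonic length was used instead. NOP2, an rRNA methyltransferase, had 18 to 79 counts per library, and 54.4% of its exonic bases lie under another gene on the same strand (AC006064.6), so how its reads were counted is uncertain.

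The 46 genes together held 0.813% to 0.824% of all counts in TOM-1 control and 0.526% to 0.543% in TOM-1 with ADI-PEG20. TOM-1 control 3, at 0.824%, did not stand apart in this sum. In RS4;11 the share was 1.05% to 1.09% in control and 0.973% to 0.985% with ADI-PEG20. NCL and NPM1 alone made up 0.295% to 0.309% of the counts in TOM-1 control and 0.178% to 0.187% after treatment. In both lines the treated libraries lay below every control library in the summed share. These are shares of RNA: less RNA per cell and a different mix of cells cannot be told apart from them.

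**Figure D2:**
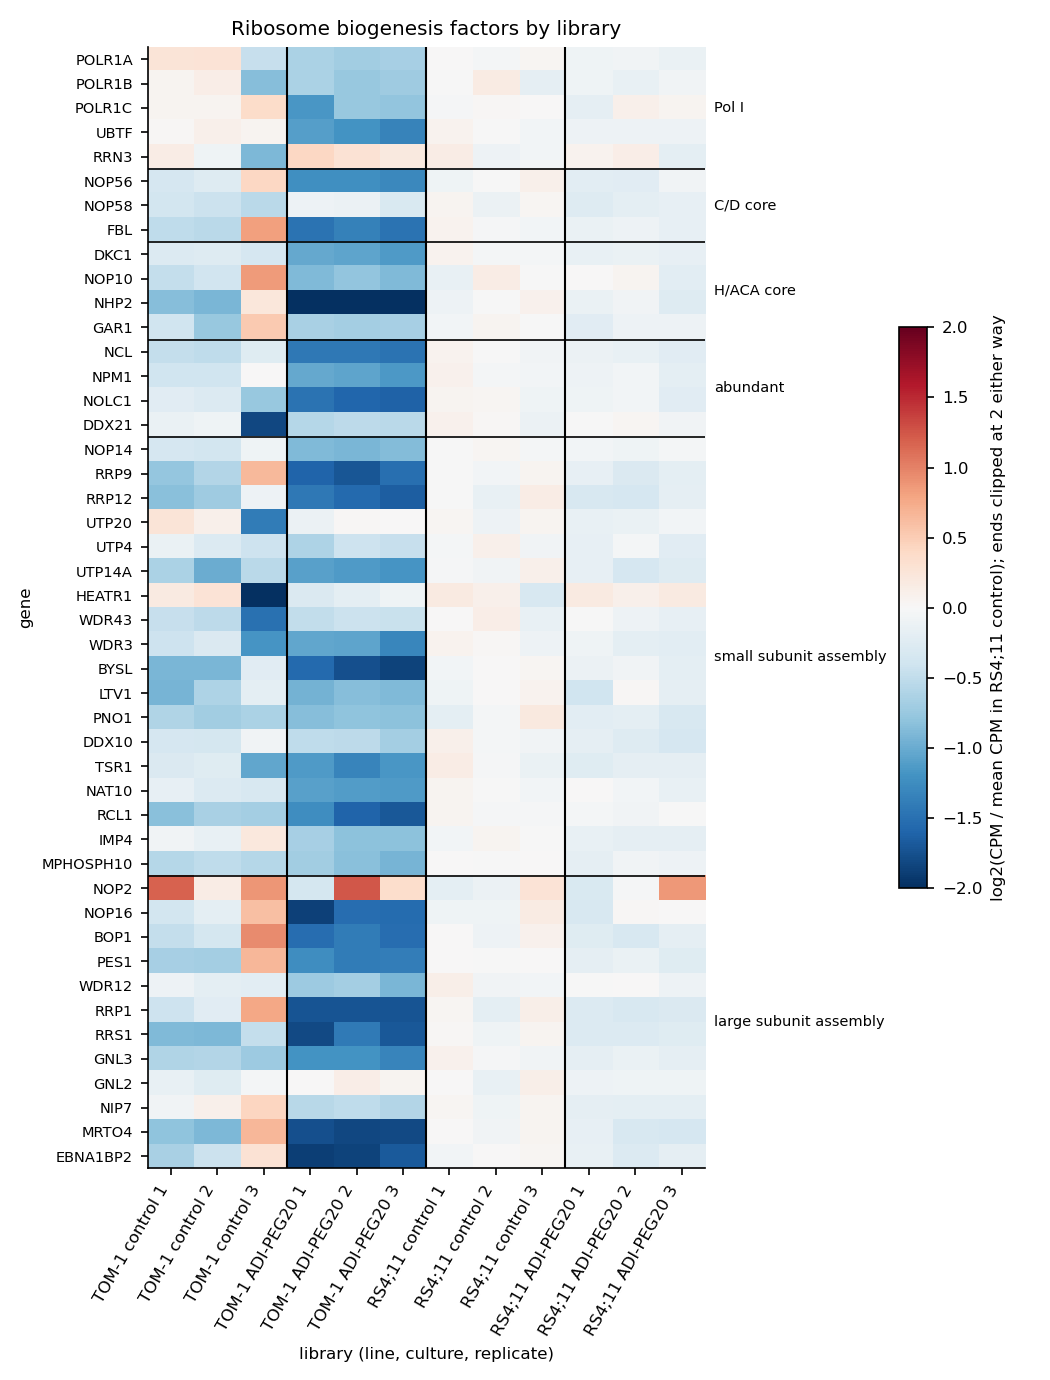
Each row is a gene and each column a library, coloured by log2 of its CPM over the gene's mean in RS4;11 control (red higher, blue lower, clipped at 2 either way), with black lines between groups and roles. The TOM-1 ADI-PEG20 columns are blue for most genes. RRN3 and GNL2 are above the RS4;11 control mean in each of these columns, UTP20 and NOP2 lie on both sides of it, and NOP58 is slightly below. The TOM-1 control 3 column differs from its neighbours in both directions.

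In TOM-1, ADI-PEG20 lowered most of these factors. With all 12 libraries 31 of the 46 fell and 0 rose by edgeR's quasi-likelihood test, where 31.9% of all 17349 tested genes passed in either direction and 15.9% fell. Their median log2 fold change was -0.75, against 0.05 over all tested genes. Without TOM-1 control 3, 37 fell and 3 rose, where 41.6% of 18321 genes passed, 19.8% fell and 21.8% rose, and the median was -0.71 against 0.00. The 3 that rose were RRN3, NOP58 and GNL2, and the call of RRN3 was lost under other scalings of the same 11 libraries. Treated and control libraries did not overlap for 33 of the 46 in the lower direction (20.1% of tested genes) and for these same 3 in the higher direction (26.1%); without TOM-1 control 3 the counts were 39 (28.0%) and 3 (31.0%). The fall of 28 of the 31 genes was called in each of the 12 fits that left out 1 library. The exceptions were NOP10, UTP14A and WDR3, whose adjusted p reached 0.063, 0.0813 and 0.138.

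**Figure D3:**
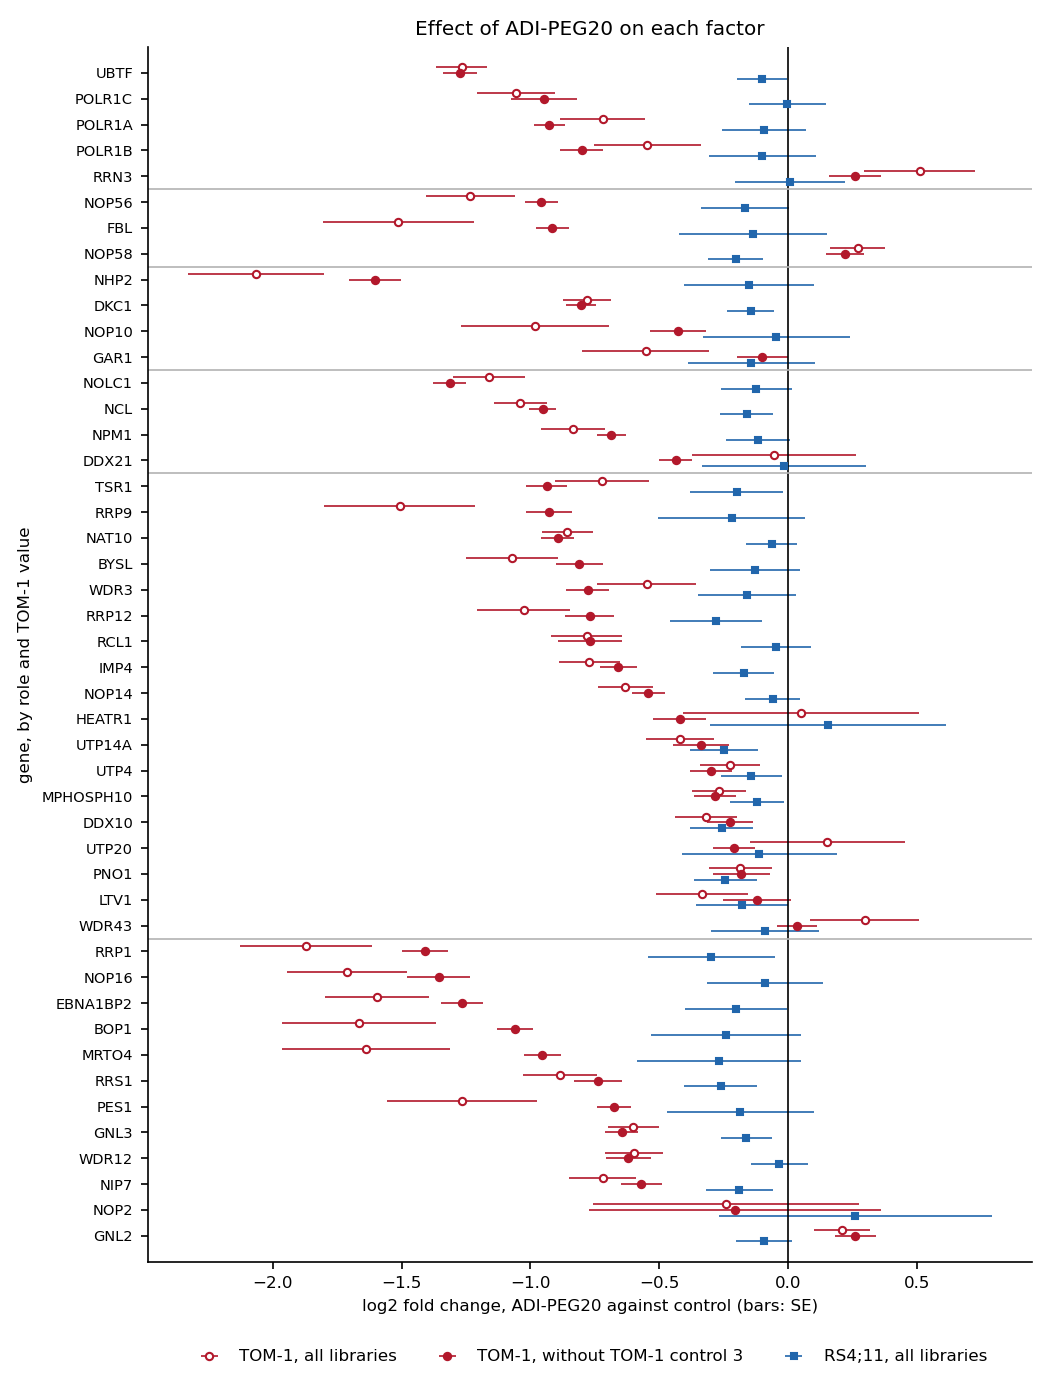
Log2 fold change with ADI-PEG20 (horizontal axis; bars are the SE) for each gene (vertical axis, in role order), for TOM-1 with all libraries (open red), TOM-1 without control 3 (filled red) and RS4;11 (blue). Red points lie left of 0 for most genes and blue points lie closer to 0, between -0.30 and 0.26.

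Among the 5 genes of RNA polymerase I and its factors, 3 fell with all 12 libraries (UBTF, POLR1A and POLR1C), and 4 fell and 1 rose without TOM-1 control 3. UBTF (ENSG00000108312, chr17:44205033-44221626, minus strand) had 323, 341 and 330.3 CPM in the TOM-1 controls and 148, 139 and 126 CPM with ADI-PEG20. In RS4;11 it had 332, 315 and 305 CPM in control and 295, 296 and 296 CPM with ADI-PEG20. The treated TOM-1 libraries were far below the other 9, which lay close together. Its log2 fold change in TOM-1 was -1.27 (adjusted p = 7.16e-06, SE 0.10), a 2.41-fold fall, and the same value of -1.27 was found without TOM-1 control 3. POLR1C, a subunit shared with RNA polymerase III, fell by 1.06 on the log2 scale (-0.95 without that library), and 18.2% of its exonic bases lie opposite other genes. POLR1A, the largest polymerase subunit, changed by -0.72 (adjusted p = 0.00603, SE 0.16), and by -0.93 without that library. POLR1B, the second largest, was called only without TOM-1 control 3, at -0.80 (adjusted p = 6.61e-08, SE 0.08) against -0.55 (adjusted p = 0.065, SE 0.21) with all libraries.

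RRN3 (ENSG00000085721, chr16:15060022-15094317, minus strand), the initiation factor, went the other way. It had 108, 91.96 and 52.4 CPM in the TOM-1 controls and 129.6, 119 and 111 CPM with ADI-PEG20. Its lowest value was in TOM-1 control 3, and the treated libraries were above all 3 controls. The log2 fold change was 0.51 (adjusted p = 0.0914, SE 0.22) with all libraries, which missed the threshold, and 0.26 (adjusted p = 0.0425, SE 0.10) without TOM-1 control 3, which passed. With that library left out, the RRN3 call by edgeR was lost with DESeq2 size factors (adjusted p = 0.0632), upper-quartile scaling (adjusted p = 0.0646) and offsets for transcript length (adjusted p = 0.076). RS4;11 had 108, 90.96 and 93.7 CPM in control and 103, 107 and 85.2 CPM with ADI-PEG20, which overlap. RRN3 has near-identical pseudogene copies, so its counts are uncertain. The count ratio of RRN3 to UBTF, taken within each library, was 0.335, 0.27 and 0.159 in the TOM-1 controls and 0.873, 0.862 and 0.884 with ADI-PEG20. In RS4;11 it was 0.307 ± 0.0186 in control and 0.332 ± 0.039 with ADI-PEG20 (SD, n = 3). This and the following gene pairs were picked with their values in view, so their ratios are descriptions with no test.

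The 3 core proteins of box C/D snoRNPs, which sit in the same particle, did not move together. FBL (ENSG00000105202, chr19:39834458-39846414, minus strand), the methyltransferase fibrillarin, had 163, 161 and 414 CPM in the TOM-1 controls and 83.7, 91.2 and 83.5 CPM with ADI-PEG20. Control 3 was well above the other controls, and all controls lay above all treated libraries. FBL fell by 1.51 on the log2 scale (SE 0.29, adjusted p = 0.00234) with all libraries and by 0.91 (SE 0.06, adjusted p = 1.73e-10) without control 3. NOP56, a scaffold protein that holds fibrillarin on the guide RNA, had 388, 411 and 654 CPM in control and 209, 208 and 201 CPM treated. It fell by 1.23 on the log2 scale, and by 0.96 without control 3. NOP58 (ENSG00000055044, chr2:202265716-202303666, plus strand), the paralogous scaffold on the other side of the particle, had 157, 150.5 and 139 CPM in control and 189, 186 and 164 CPM treated. Its treated libraries lay above all controls, with a log2 fold change of 0.27 (adjusted p = 0.0716, SE 0.11) over all libraries and 0.22 (adjusted p = 0.0177, SE 0.07) without control 3.

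In RS4;11, NOP58 had 211, 188 and 209 CPM in control and 170.1, 177 and 180.4 CPM with ADI-PEG20, and here the treated libraries lay below the controls, without passing the test. The count ratio of NOP58 to NOP56 was 0.405, 0.366 and 0.213 in the TOM-1 controls and 0.904, 0.895 and 0.816 after treatment. RS4;11 had ratios of 0.459, 0.387 and 0.398 in control and 0.401, 0.422 and 0.387 treated. The treated TOM-1 libraries thus held nearly as many NOP58 as NOP56 reads, and no other library held above 0.459 as many. The ratio of FBL to NOP56 was 0.421, 0.391 and 0.632 in the TOM-1 controls and 0.401, 0.438 and 0.415 after treatment, which differ only through control 3. NOP56 carries 5 annotated snoRNA genes inside its own gene and NOP58 carries 4; poly(A) libraries do not measure the snoRNAs themselves.

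**Figure D4:**
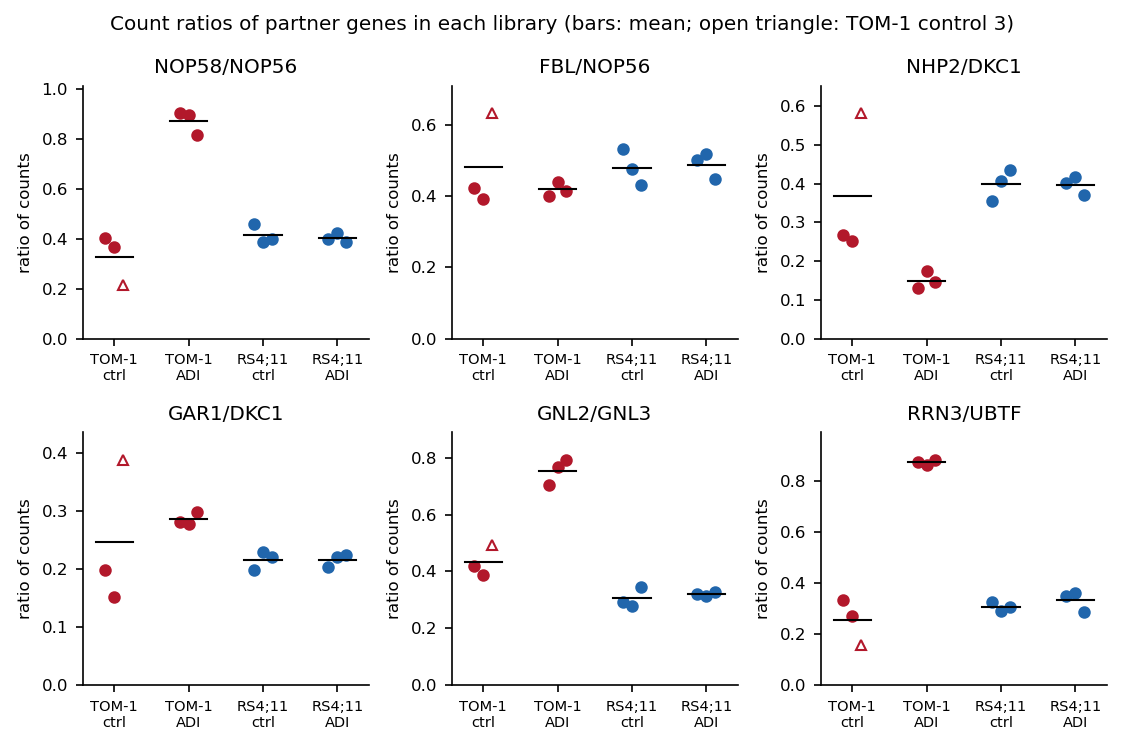
Ratio of raw counts (vertical axes, from 0) of 6 pairs of partner genes in each library (points; bars are the means of 3), for TOM-1 (red) and RS4;11 (blue), with TOM-1 control 3 as an open triangle. NOP58 to NOP56, GNL2 to GNL3 and RRN3 to UBTF are higher in all 3 treated TOM-1 libraries than in any other, NHP2 to DKC1 is lower, and FBL to NOP56 overlaps between TOM-1 groups.

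Of the 4 core proteins of box H/ACA snoRNPs, 3 fell with and without control 3 (DKC1, NHP2 and NOP10). NHP2 (ENSG00000145912, chr5:178149460-178153967, minus strand), which binds the guide RNA's stem, had the deepest fall of all 46 genes. It had 68.5, 65.8 and 144 CPM in the TOM-1 controls and 19.8, 26.04 and 20.6 CPM with ADI-PEG20, against 116, 124 and 132 CPM in RS4;11 control and 113, 118 and 103 CPM in treated RS4;11. The treated TOM-1 libraries lay below all others, and control 3 stood above the other TOM-1 controls. The log2 fold change in TOM-1 was -2.07 (adjusted p = 0.000175, SE 0.26), a 4.19-fold fall, and -1.60 (adjusted p = 3e-11, SE 0.10) without control 3, a 3.04-fold fall. Of its exonic bases, 27.4% lie opposite RMND5B, so a part of its reads could belong to that gene if strand was not used. DKC1 (dyskerin), the enzyme that makes pseudouridine, fell by 0.78 on the log2 scale (0.80 without control 3), from 254 ± 6.42 CPM (SD, n = 3) to 148 ± 5.52 CPM (SD, n = 3).

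GAR1, the remaining core protein, had 50.6, 39.5 and 96.1 CPM in control and 42.9, 41.6 and 42.2 CPM treated. Its groups overlapped and it passed the test neither with control 3 (-0.55 (adjusted p = 0.111, SE 0.25)) nor without it (-0.10 (adjusted p = 0.472, SE 0.10)). NOP10, the smallest of these proteins, had 33.1, 35.3 and 83.04 CPM in control and 24.9, 26.5 and 25.1 CPM treated, a log2 fold change of -0.98 (adjusted p = 0.0212, SE 0.29) that shrank to -0.43 (adjusted p = 0.00299, SE 0.11) without control 3. The count ratio of NHP2 to DKC1 was 0.268, 0.253 and 0.583 in the TOM-1 controls and 0.13, 0.174 and 0.145 after treatment, and in RS4;11 it ranged from 0.354 to 0.435. For GAR1 to DKC1 the ratio was 0.198, 0.152 and 0.388 in control and 0.281, 0.277 and 0.297 treated. Among members of 1 particle, NHP2 reads became scarcer against DKC1 reads in all 3 treated libraries, and GAR1 reads did not.

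All 4 abundant nucleolar proteins fell without control 3, and all but DDX21 with all 12 libraries. NPM1 (ENSG00000181163, chr5:171387116-171411137, plus strand) had 1371, 1372 and 1825 CPM in the TOM-1 controls and 885, 867 and 810.2 CPM with ADI-PEG20. Its groups did not overlap, and the log2 fold change was -0.83 (adjusted p = 0.000452, SE 0.12), and -0.69 without control 3. NPM1 also has near-identical pseudogene copies, which makes its counts uncertain. NOLC1 (ENSG00000166197, chr10:102152176-102163871, plus strand), a chaperone of snoRNPs in the nucleolus, had 415, 400.5 and 286 CPM in control and 174, 162 and 157 CPM treated. Here control 3 was the lowest control, and the fall was larger without it, -1.31 (adjusted p = 6.57e-13, SE 0.07) against -1.16 (adjusted p = 0.00012, SE 0.14). NCL went from 1749 ± 183 CPM (SD, n = 3) to 851 ± 16.8 CPM (SD, n = 3), a fall by 1.04 on the log2 scale (0.95 without control 3). DDX21, an RNA helicase, had 330.4, 341 and 102 CPM in control and 245, 251 and 249.9 CPM treated. Control 3 was far below the other controls, and no change was found with all libraries (-0.05 (adjusted p = 0.946, SE 0.32)) and a fall without it (-0.44 (adjusted p = 6.01e-06, SE 0.06)).

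The small subunit is assembled on the processome, a large particle built around the U3 snoRNP. Of 18 genes of this group, 10 fell and 0 rose with all 12 libraries, with a median log2 fold change of -0.48; without control 3, 14 fell and 0 rose, with the same median. RRP9 (ENSG00000114767, chr3:51933430-51941941, minus strand), a protein specific to the U3 snoRNP, had 49.1, 55.5 and 131 CPM in control and 27.5, 25.6 and 29.5 CPM treated. Control 3 was again well above the others, and the log2 fold change was -1.51 (adjusted p = 0.00235, SE 0.29) with it and -0.93 (adjusted p = 1.94e-08, SE 0.09) without it. NAT10 (ENSG00000135372, chr11:34105602-34147670, plus strand), the enzyme that acetylates cytidines of the small subunit's RNA, had 215, 199.8 and 193 CPM in control and 114, 112 and 110.4 CPM treated. Its controls agreed closely and its log2 fold change was -0.86 (adjusted p = 8.92e-05, SE 0.10), and -0.89 without control 3. RCL1 (ENSG00000120158, chr9:4792869-4885917, plus strand), linked to a cut that frees the small subunit's RNA, fell from 22.8, 26.1 and 25.3 CPM to 17.2, 13.4 and 12.5 CPM, by 0.78 on the log2 scale (0.77 without control 3).

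WDR43 (ENSG00000163811, chr2:28894643-28948222, plus strand), a processome protein that joins the particle early, had 125, 120.2 and 61.7 CPM in the TOM-1 controls and 123, 128 and 127 CPM with ADI-PEG20. Apart from control 3 the 5 TOM-1 libraries lay between 120.2 and 128 CPM. Its log2 fold change was 0.30 (95% interval -0.16 to 0.76) with all libraries and 0.03 (95% interval -0.12 to 0.19) without control 3. BYSL, RRP12, NOP14, IMP4, TSR1, WDR3 and UTP14A also fell with and without control 3, by 0.42 (UTP14A) to 1.07 (BYSL) on the log2 scale with all 12 libraries, and by 0.34 (UTP14A) to 0.94 (TSR1) without control 3. The fall of WDR3 (-0.55 (adjusted p = 0.047, SE 0.19)) passed in only 1 of the 12 fits that left out a library, the one without control 3 (-0.78 (adjusted p = 1.12e-07, SE 0.08)). HEATR1, UTP20, UTP4 and MPHOSPH10 were called, all lower, only without control 3, where their log2 fold changes ran from -0.42 (HEATR1) to -0.21 (UTP20). HEATR1 and UTP20 had fitted values above 0 with all libraries, 0.05 and 0.15, so their direction turned with that library. LTV1, PNO1 and DDX10 were called in neither fit, with values of -0.33, -0.19 and -0.32 with all libraries and -0.12, -0.18 and -0.23 without control 3. LTV1 and PNO1 act late, in maturation of the small subunit after it has left the processome, and DDX10 is a helicase of the processome.

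In the large subunit group 10 of 12 fell with all 12 libraries and again without control 3, with medians of -1.08 and -0.71. RRP1 (ENSG00000160214, chr21:43789513-43805293, plus strand), a nucleolar factor of early large-subunit particles, had 76.2, 86.8 and 174 CPM in the TOM-1 controls and 30.7, 30.6 and 30.9 CPM with ADI-PEG20. The treated libraries were almost identical and lay below every other library of the study. Its log2 fold change was -1.87 (adjusted p = 0.000256, SE 0.25), and -1.41 (adjusted p = 3.38e-11, SE 0.09) without control 3. NOP16 (ENSG00000048162, chr5:176383938-176388975, minus strand), another early factor, had 45.8, 51.6 and 89.7 CPM in control and 16.2, 20.4 and 20.4 CPM treated. It fell by 1.71 on the log2 scale, and by 1.36 without control 3, and 20.0% of its exonic bases lie opposite ARL10 and HIGD2A. BOP1 forms a complex with PES1 and WDR12 that is needed to process the large subunit's RNA. BOP1 had 226, 246 and 605 CPM in control and 109.6, 119.8 and 109.8 CPM treated, with a log2 fold change of -1.66 (adjusted p = 0.00144, SE 0.30), and -1.06 (adjusted p = 6.27e-11, SE 0.07) without control 3. Its partner PES1 fell by 1.27 on the log2 scale and WDR12 by 0.60, and without control 3 by 0.68 and 0.62; these differences between genes were not tested.

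RRS1, which brings the 5S RNA particle into the growing subunit, fell from 55.7, 54.6 and 73.4 CPM to 29.4, 38.3 and 31.6 CPM, with a log2 fold change of -0.89 (adjusted p = 0.00079, SE 0.14), and -0.74 without control 3. EBNA1BP2 and MRTO4, further assembly factors, fell by 1.60 and 1.64 on the log2 scale, and by 1.26 and 0.95 without control 3. GNL3 (nucleostemin) and NIP7 fell by 0.60 and 0.72, and by 0.65 and 0.57 without control 3. GNL2 (ENSG00000134697, chr1:37566816-37595935, minus strand), a GTPase that acts on the large subunit before export, had 81.2, 76.2 and 88.1 CPM in the TOM-1 controls and 91.01, 98.96 and 93.8 CPM with ADI-PEG20. All treated libraries lay above all controls; the log2 fold change was 0.21 (adjusted p = 0.174, SE 0.11) with all libraries, which missed the threshold, and 0.26 (adjusted p = 0.0111, SE 0.08) without control 3. The count ratio of GNL2 to its paralog GNL3 was 0.418, 0.386 and 0.493 in the TOM-1 controls and 0.703, 0.769 and 0.794 after treatment, and 0.280 to 0.347 over the 6 RS4;11 libraries. NOP2 was not called, with 2.24, 1.09 and 1.82 CPM in control and 0.771, 2.33 and 1.26 CPM treated, a range that the few reads make wide.

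The size of many of these falls depended on TOM-1 control 3. In that library 9 of the 46 genes stood more than 2-fold above the mean of controls 1 and 2 (FBL, NOP10, NHP2, GAR1, RRP9, BOP1, PES1, RRP1 and MRTO4), and their longest transcripts measured 0.554 to 3.022 kb. A further 3 stood more than 2-fold below (DDX21, UTP20 and HEATR1), at 4.829 to 9.025 kb. Over the 46 genes the log2 ratio of control 3 to the other controls correlated with log2 transcript length at r = -0.699 (Spearman -0.687), and over 10152 tested genes with at least 5 CPM at r = -0.555. Genes of 1 library are not independent replicates, and the points share that library and its depth. The log2 fold change in TOM-1 correlated with length at r = 0.401 with all libraries and 0.099 without control 3. With offsets for transcript length in the fit of all 12 libraries, 35 genes fell and 1 rose, where 35.0% of tested genes passed. Their median log2 fold change was -0.89, against -0.02 over all tested genes. Without control 3, 37 genes fell with no offsets. With offsets, 37 fell and 2 rose there, where 41.0% of tested genes passed. The part of transcript length in these falls was not tested beyond this.

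**Figure D5:**
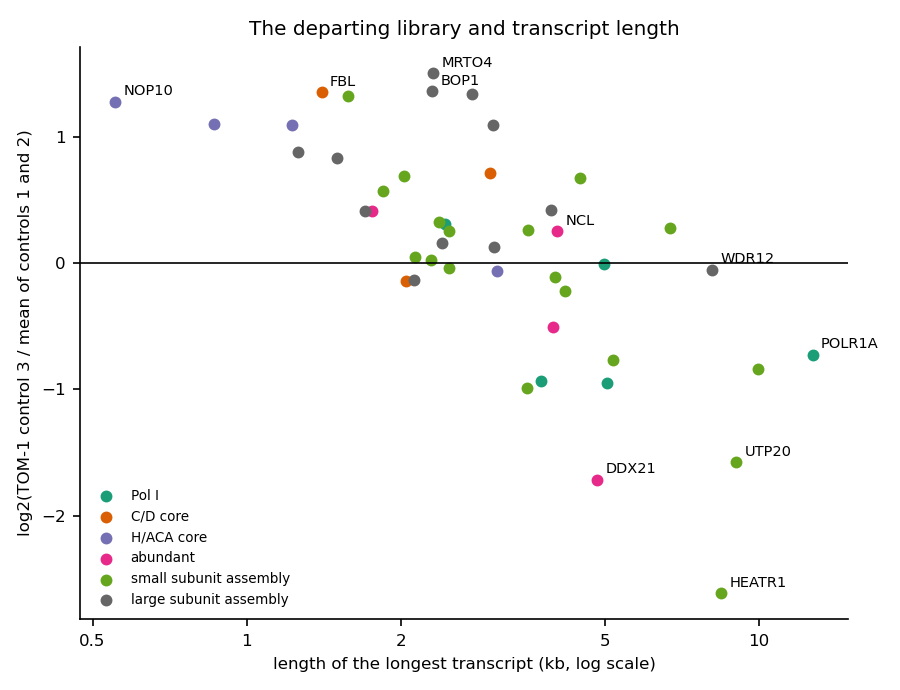
Each point is 1 of the 46 genes, placed by the length of its longest transcript (horizontal log axis, kb) and by log2 of its CPM in TOM-1 control 3 over the mean of controls 1 and 2 (vertical axis), coloured by role. Most short transcripts lie above 0 and most of the longest, HEATR1 and UTP20 among them, below, with exceptions such as NOP58 and DDX10.

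Because the treatment removes arginine, the share of arginine codons was counted in the longest annotated coding sequence of each gene. Its median was 5.98% over the 46 genes, from 2.72% (NPM1) to 12.7% (NOP16), against 5.67% over 12716 tested genes. IMP4 (12.03%), GAR1 (11.5%), RRP1 (11.3%) and RRS1 (11.2%) followed NOP16. Across the 46 genes this share correlated with the TOM-1 log2 fold change at r = -0.42 with all libraries and r = -0.216 without control 3. Of the 5 genes with the highest shares, NOP16, IMP4, RRP1 and RRS1 fell with all 12 libraries, with log2 fold changes of -1.71, -0.77, -1.87 and -0.89, and GAR1 was not called (-0.55). Of the 5 with the lowest shares, NPM1, NOLC1 (3.24%) and WDR12 (3.55%) fell in that fit, and HEATR1 (2.75%) and WDR43 (3.40%) were not called. Over all 46 genes 31 fell, against 15.9% of tested genes. The correlation is across genes, which are not independent replicates.

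Genes with and without the E-box were found among both deep and shallow changes. With all 12 libraries 13 of the 22 genes with a box fell, with a median log2 fold change of -0.62, as did 14 of the 18 without one, with a median of -0.75. Without control 3 these were 16 of 22 (median -0.49) and 16 of 18 (median -0.87). Over all tested genes 15.9% fell with all 12 libraries and 19.8% without control 3. The difference between these groups was not tested. UBTF, NHP2, NOP16 and RRP1 have no box in the window and were among the deep falls, as were FBL, RRP9, MRTO4 and EBNA1BP2, which have one. GNL2 and WDR43 have one just after the start, shown above, and were not called lower.

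In RS4;11, 0 of the 46 genes passed the test with all 12 libraries, where 0.0% of tested genes passed, and 0 passed without TOM-1 control 3, where 0.317% did. At an unadjusted p under 0.05 edgeR found 0 of the 46 (325 of all genes) with all libraries and 23 of the 46 (2207 of all 18321 genes) without TOM-1 control 3; DESeq2's Wald test called 0. The fitted values were nevertheless below 0 for 43 of the 46, against 48.3% of all tested genes, with a median of -0.14 against 0.00 and a range from -0.30 (RRP1) to 0.26 (NOP2). Treated libraries lay wholly below the controls for 26 of the 46 (9.05% of tested genes) and wholly above for 0 (7.72%). RRP1, for example, had 105, 89.3 and 111 CPM in control and 83.9, 81.2 and 83.2 CPM with ADI-PEG20, a log2 fold change of -0.30 (95% interval -0.83 to 0.24), and -0.30 (95% interval -0.46 to -0.13) without TOM-1 control 3. MRTO4 had 198, 188 and 203 CPM in control and 176, 157 and 156 CPM treated, a log2 fold change of -0.27 (95% interval -0.40 to -0.14) without TOM-1 control 3 (adjusted p = 0.0628). Both were picked with their values in view. For NHP2, the deepest fall in TOM-1, the RS4;11 interval was -0.15 (95% interval -0.70 to 0.40).

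The effect in TOM-1 was compared with that in RS4;11 in a single contrast. It was lower in TOM-1 for 19 of the 46 genes and higher for 0 with all 12 libraries, where 11.9% of tested genes passed, 6.05% lower and 5.89% higher. Without TOM-1 control 3 it was lower for 32 and higher for 2, where 30.4% passed, 14.7% lower and 15.7% higher. The 2 were NOP58, at 0.43 (adjusted p = 0.00174, SE 0.10), and GNL2, at 0.35 (adjusted p = 0.0146, SE 0.11). The largest differences were those of NHP2, at -1.91 (adjusted p = 0.0062, SE 0.36), NOP16, at -1.62 (adjusted p = 0.00813, SE 0.32), and RRP1, at -1.57 (adjusted p = 0.0136, SE 0.35). Without control 3 these were -1.45, -1.27 and -1.11. UBTF differed by -1.17 (adjusted p = 0.000508, SE 0.14), and by -1.17 without control 3. The count of members fell to 11 or 12 when TOM-1 ADI-PEG20 2 or 3, RS4;11 control 2 or 3, or RS4;11 ADI-PEG20 1 or 2 was left out. In these fits the share of all tested genes that passed fell too, from 11.9% to between 6.39% and 7.51%.

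Between the lines in control culture, TOM-1 had lower levels of 15 of the 46 genes and higher levels of 0 with all 12 libraries, where 34.7% of tested genes passed and 18.4% were lower. Without TOM-1 control 3 it had lower levels of 33 and a higher level of 1, POLR1A, where 52.8% passed, 27.5% lower and 25.4% higher. This contrast shares its control libraries with those above. Among the genes called lower, the largest differences with all libraries were in WDR43, RRS1 and RCL1. WDR43 had 173, 189 and 156 CPM in RS4;11 control, above every TOM-1 library, a log2 difference of -0.75 (adjusted p = 0.0156, SE 0.21), and -0.50 without control 3. RRS1 had 104, 96.6 and 106 CPM there, a difference of -0.74 (adjusted p = 0.00153, SE 0.14). RCL1 had 42.1, 40.04 and 39.9 CPM there, a difference of -0.72 (adjusted p = 0.0013, SE 0.14). With control 3 left out the largest among the genes called lower were instead BYSL (-0.91), RRS1 (-0.89) and NHP2 (-0.88). None of the 5 genes of RNA polymerase I and its factors was called lower in TOM-1 in either fit, though 2 had fitted values below 0 with all libraries. POLR1A was higher by 0.26 (adjusted p = 0.0012, SE 0.06) without control 3. FBL, BOP1 and RRP1 had fitted values above 0 with all libraries, and were called lower in TOM-1 without control 3, at -0.53, -0.42 and -0.32. NOP10 turned in the same way, from a fitted value of 0.13 with all libraries to a call lower in TOM-1 without control 3.

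With ADI-PEG20 in both lines, a contrast that does not use the control libraries, TOM-1 had lower levels of 36 of the 46 genes and higher levels of 0, where 47.2% of tested genes passed and 24.0% were lower. Without TOM-1 control 3, which enters this contrast only through the shared spread and scaling, 41 were lower and 1, RRN3, was higher (62.9% passed). The libraries of TOM-1 lay wholly below those of RS4;11 for 41 of the 46 (34.9% of tested genes) and wholly above for RRN3 and GNL2 (35.7%). NHP2 was 5.02-fold lower, a log2 difference of -2.33 (adjusted p = 1.94e-05, SE 0.27). BYSL, with 29.9, 25.8 and 24.2 CPM in treated TOM-1 and 80.4, 83.1 and 76.5 CPM in treated RS4;11, was 3.00-fold lower. NOP58 had similar CPM in both, 189, 186 and 164 against 170.1, 177 and 180.4, with a log2 difference of 0.03 (95% interval -0.20 to 0.26).

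A wider set of 146 other genes of ribosome synthesis, in 6 lists and none among the 46, gave the setting. In TOM-1, 56 of them fell and 15 rose with all 12 libraries, with a median log2 fold change of -0.32, where 15.9% of all tested genes fell and 15.9% rose. Without control 3, 73 fell and 28 rose, with a median of -0.26, where 19.8% of all tested genes fell and 21.8% rose. By list, 4 of 12 further RNA polymerase I genes, 5 of 9 snoRNP assembly genes, 15 of 42 small-subunit and 18 of 46 large-subunit factors, 7 of 15 exosome and end-trimming genes and 7 of 22 RNA polymerase III genes fell. In the same order 1, 2, 5, 3, 1 and 3 genes rose. Without control 3, in that order, 5, 5, 17, 29, 7 and 10 fell and 2, 2, 8, 6, 4 and 6 rose. The deepest falls were those of POLR1G, a subunit of RNA polymerase I, at -2.18 (SE 0.21, adjusted p = 2.59e-05), TBL3, a processome protein, at -1.77 (SE 0.27, adjusted p = 0.000474), and POLR1E, another polymerase I subunit, at -1.61 (SE 0.20, adjusted p = 0.000134). Without control 3 they were -1.99, -1.26 and -1.36. POLR1G had a mean of 13.2 ± 2.86 CPM in TOM-1 control and 2.89 ± 0.401 CPM with ADI-PEG20 (SD, n = 3). Of its exonic bases, 45.1% lie opposite ERCC1 and PPP1R13L, and 29.9% of those of TBL3 lie opposite NOXO1. A part of the reads of both could belong to those genes if strand was not used. With all 12 libraries the largest rises were in RNA polymerase III and its factors. POLR3C, a polymerase subunit, rose by 1.35 (SE 0.12, adjusted p = 1.94e-05), GTF3C3, a subunit of the factor TFIIIC, by 1.20 (SE 0.19, adjusted p = 0.000663), and POLR3F, another polymerase III subunit, by 0.71 (SE 0.22, adjusted p = 0.0282). Without control 3 POLR3C, GTF3C3 and POLR3F rose by 1.25, 1.01 and 0.46, and POLR3F was no longer among the largest. The highest fitted values in other lists were then 0.78 (exosome and end trimming), 0.64 (large subunit) and 0.53 (small subunit). POLR3C had 51.8 ± 6.47 CPM in TOM-1 control and 132 ± 4.68 CPM treated (SD, n = 3). In RS4;11, 0 of the 146 passed the test.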

How the data were processed

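RNA of 12 libraries was measured by sequencing of poly(A)-captured RNA, and samples were grouped by the line and treatment in their labels. Values are raw counts, deposited by the authors as 1 table of whole numbers for Ensembl genes. STAR, SAMtools, featureCounts and hg38 are named in the submitters' processing notes. Versions, the annotation and the use of strand are not given in the sources used here, so reads of overlapping and antisense genes may be shared. Besides the overlaps given above, 34.8% of the exonic bases of LTV1 lie under genes on the same strand. Opposite other genes lie 23.2% of the exonic bases of HEATR1, 20.8% of TSR1, 20.2% of NIP7, 18.8% of EBNA1BP2, and 17.1% each of NOP14 and WDR3. Counts were fitted with edgeR 4.0.16 in R 4.3.3: filterByExpr (17349 genes kept), TMM scaling, 1 group-means model over all 12 libraries (glmQLFit, glmQLFTest), Benjamini-Hochberg adjustment over all tested genes and a threshold of 0.05. "Fell", "rose" and "called" mean an adjusted p under 0.05. The same fit without TOM-1 control 3 tested 18321 genes. The standard error is the log2 fold change divided by the square root of F. CPM values were scaled by TMM. The pipeline was tested on simulated data.

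The 46 genes, their roles, the other lists and the alternatives were chosen with earlier results of these data known. Values in every library are given for the genes with the largest fall and rise and the highest level per length in each role list, the largest differences between effects and between lines, and the genes called higher in TOM-1. Other genes named were chosen after their values were seen. Alternatives were DESeq2 1.42.0 size factors and Wald test, upper-quartile scaling, other filters, the replicate number as a block, the libraries of a contrast alone, offsets for transcript length, and each library left out. Settings that leave out TOM-1 control 3 under 3 of these were added after seeing the data. Promoters came from RefSeq (GRCh38.p14). Gene positions, lengths, overlaps and coding sequences came from GENCODE 29 on GRCh38. Arginine codons were counted in coding sequences, and no protein table was used here.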

Additional observations from a re-analysis of the deposited data

Results flagged for a closer look

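For 19 genes the effect of ADI-PEG20 differed between the lines by edgeR's test of the difference itself (TOM-1 minus RS4;11, log2, all 12 libraries; 11.9% of tested genes passed). In RNA polymerase I and its factors the differences were -1.05 (POLR1C) and -1.17 (UBTF), and without TOM-1 control 3 -0.94 and -1.17. In the snoRNP cores they were -1.07 (NOP56), -1.38 (FBL), -0.64 (DKC1) and -1.91 (NHP2), and without TOM-1 control 3 -0.79, -0.78, -0.66 and -1.45. Among the abundant nucleolar proteins they were -0.88 (NCL), -0.72 (NPM1) and -1.04 (NOLC1), and without TOM-1 control 3 -0.79, -0.57 and -1.19. Small subunit factors differed by -0.57 (NOP14), -0.94 (BYSL), -0.79 (NAT10), -0.74 (RCL1) and -0.60 (IMP4), and without TOM-1 control 3 -0.48, -0.68, -0.83, -0.72 and -0.48. Large subunit factors differed by -1.62 (NOP16), -1.42 (BOP1), -0.57 (WDR12), -1.57 (RRP1) and -1.39 (EBNA1BP2), and without TOM-1 control 3 -1.27, -0.82, -0.59, -1.11 and -1.06. Each was lower in TOM-1, with and without control 3. FBL and BOP1 moved by more than 1.5 times without that library. When each library was dropped in turn, 3 of 12 fits called FBL, BOP1, NOP14 and IMP4, 4 called RCL1 and WDR12, 5 called BYSL and 7 called NPM1, and the other 11 genes were called in all 12.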

How the results depend on the processing

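No scaling or filter reversed the direction of the median in TOM-1, where 25 to 40 of the 46 genes were called and 25 of the 31 were called under every setting. Fitting the 6 libraries of a contrast alone called 25 in TOM-1 (2639 of all genes against 5527), 6 of the 46 between the lines in control culture (3548 genes against 6014) and 31 of the 146 wider genes in TOM-1. In the difference between the effects, leaving out each library in turn gave 11 to 34 genes (1169 to 5567 of all genes, against 2072), and DESeq2's Wald test called 3228 of all genes. In control culture the same gave 9 to 34 genes (up to 9681 of all genes); 9 came without RS4;11 control 1, and both upper values without TOM-1 control 3. With control 3 left out, DESeq2 size factors gave 35 in the difference and 35 between the lines, upper-quartile scaling 35 and 34, and length offsets 34 and 35. Of all genes, these settings called 29.6% to 30.4% in the difference and 51.7% to 53.1% between the lines. Searching only the bases before the start found the E-box in 8 of 40 promoters.

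Deviations of same-numbered control and treated libraries correlated weakly, at -0.062 to 0.145, against -0.095 to 0.07 for differently numbered ones. In RS4;11 the same-numbered values were 0.057, 0.031 and 0.145, and in TOM-1 -0.027, -0.012 and -0.062. Whether the numbers mark paired libraries cannot be told from these values. With the number as a replicate block, 29 of the 46 genes were called in TOM-1 (27.4% of all genes), 0 in RS4;11 and 11 in the difference (1213 of all genes). Between the lines 15 were called in control (32.5% of all genes) and 36 with ADI-PEG20 (45.9%). With the block and without TOM-1 control 3, 5 were called in RS4;11 (all lower, 326 of all genes), 35 in the difference (31.3% of all genes) and 36 between the lines in control (52.7%).

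Directions turned, with a call, for 2 genes in TOM-1 and for 4 of the genes with values in every library between the lines in control culture, in each case without TOM-1 control 3. In TOM-1, leaving out each library in turn ranged from -0.42 to 0.35 for HEATR1 and -0.21 to 0.39 for UTP20. Without control 3 HEATR1 went to -0.42, and to -0.48 with the block, -0.43 with DESeq2 size factors, -0.45 with upper-quartile scaling and -0.62 with length offsets; UTP20 went to -0.21, -0.23, -0.22, -0.24 and -0.42. Between the lines, leaving out each library in turn ranged from -0.53 to 0.27 for FBL, -0.42 to 0.39 for BOP1 and -0.32 to 0.32 for RRP1. Without control 3 FBL went to -0.53, and to -0.55 with the block, -0.55 with DESeq2 size factors, -0.54 with upper-quartile scaling and -0.45 with length offsets. In the same order BOP1 went to -0.42, -0.40, -0.44, -0.43 and -0.34, and RRP1 to -0.32, -0.30, -0.34, -0.33 and -0.28. NOP16 went to -0.30 with DESeq2 size factors. The cause was not tested. With 3 libraries a group, counts limit NOP2 most.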
